A study of Mus musculus with 9 samples.

Results

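Retained-intron transcripts are annotated RNAs of a gene in which sequence that other transcripts of that gene remove as an intron is kept. Here they were the transcripts that GENCODE mouse release 21 (assembly GRCm38, the assembly of mm10) types as retained intron and that had 10 or more counts in at least 3 of the 9 libraries. Of 21836 retained-intron transcripts listed among 140948 transcripts, 9272 met this rule and are called members below. They belonged to 5023 genes. Of the others, 3743 had 0 counts in every library and 8821 had counts under the minimum. The members were thus selected on measured counts, and their abundance is given as a description. At the minimum, 337 transcripts had a third-highest count from 10 to under 11 and a median summed share of 2.12%, and 412 just below it, from 9 to under 10, had a median of 2.70%. Only 22 members passed through the 3 libraries of a single group.

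The libraries were made from total RNA of primary microglia, the immune cells of the brain, cultured from whole brains of C57BL/6J mouse embryos, per the methods. Cells were treated for 3 days with control siRNA, with Chd8 siRNA or with Tsc2 siRNA, with 3 libraries in each group numbered 1 to 3. A small interfering RNA (siRNA) lowers the mRNA that it matches, here that of the chromatin remodeler Chd8 or of Tsc2, a subunit of the complex that restrains mTOR signaling. Each replicate is described in the methods as a culture from a distinct mouse brain, but neither source states that cultures of one number came from the same brain. The results text of the study mentions stimulation with lipopolysaccharide, a bacterial activator of microglia, while the RNA-seq methods and the labels do not.

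Splicing joins exons and removes the introns between them, and an intron that stays in a polyadenylated RNA usually brings a premature stop codon. Such RNAs are often held in the nucleus or destroyed by nonsense-mediated decay, and many genes of the splicing machinery, SR proteins and Clk kinases among them, regulate their own level in this way. Total RNA also holds nuclear RNA that is not yet spliced. In these libraries a read from a finished retained-intron RNA and a read from unspliced precursor cannot be told apart, nor can fewer cells of a type and less RNA per cell.

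Estimated counts per transcript summed to between 16913448 and 33213801 in a library, and members held between 547134 and 1280918 of them. A count of 3, taken as the floor, corresponded to between 0.0903 and 0.177 CPM, the count per 1000000 counts of the library. The mRNA of Chd8 stood at 120, 93.5 and 98.4 CPM with control siRNA and at 87.1, 41.2 and 38.6 CPM with Chd8 siRNA, and Tsc2 at 41.5, 38.3 and 40.9 CPM with control siRNA and 25.3, 29.1 and 37.5 CPM with Tsc2 siRNA. Neither pair of groups overlapped, and the two-sided exact permutation test gave p = 0.1 for both, the smallest value that 3 libraries against 3 allow. Of the microglial markers, Csf1r was at 406 to 581 CPM and C1qa at 265 to 445 CPM. The homeostatic markers Tmem119 (0 to 1.12 CPM) and P2ry12 (0.721 to 2.79 CPM) were low, although P2ry12 was above the floor in every library. Summed astrocyte markers were higher in the libraries numbered 3 (58.9 to 120 CPM) than in those numbered 1 and 2 (14.2 to 28.7 CPM), in every group.

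Members were shorter and less spliced than the protein-coding transcripts that passed the same minimum. Their median length was 1631 bases against 2592, and their median exon number was 3 against 8. A member held a median of 547 bases that are intronic in other transcripts of its gene. In 3298 members (35.6%), an exon spanned at least 1 complete annotated intron. The other 5974 held no complete intron, and 5925 of these held part of one.

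The complete introns that members retain were short. An intron was counted only where it lies whole inside an exon of a member, so the difference in length is in part fixed by this rule. Counting each intron of a coding transcript once, 4730 retained introns had a median length of 388.5 bases, against 1471 bases for the 74048 other coding introns of the member genes. Introns under 150 bases made up 24.9% of the retained and 9.67% of the other introns. Of the retained introns 97.9% began with GT and ended with AG, the usual splice signals, 58 began with GC, and 3 were of the rare AT to AC kind. The longer donor signals GTAAGT and GTGAGT stood at the start of 10.6% and 14.5% of them. A stop codon occurred in all 3 reading frames of 81.0% of the retained introns, and 32.3% had a length divisible by 3, against 33.3% of the other coding introns.

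A few complete introns are shown because the members that keep them return in the results. They are printed 5′ to 3′ on the strand of the gene, read from the GENCODE release 21 transcript sequences, and capitals mark the bases at the 2 splice sites. The Ncl intron (chr1:86352320-86352509, minus strand, 190 bases) belongs to the member with one of the highest shares of its gene. The Clk1 intron (chr1:58417180-58417266, minus strand, 87 bases) and the Xrn2 intron (chr2:147029785-147029868, plus strand, 84 bases) come from an SR protein kinase and a nuclear exonuclease. The Rpl6 (chr5:121205664-121205753, plus strand, 90 bases), Brd2 (chr17:34114178-34114349, minus strand, 172 bases) and Zfp687 (chr3:95008918-95009075, minus strand, 158 bases) introns belong to members whose shares did not overlap between 2 groups. The Chd8 (chr14:52207059-52207234, minus strand, 176 bases) and Tsc2 (chr17:24596767-24596854, minus strand, 88 bases) introns lie in the targeted genes.
Ncl-202: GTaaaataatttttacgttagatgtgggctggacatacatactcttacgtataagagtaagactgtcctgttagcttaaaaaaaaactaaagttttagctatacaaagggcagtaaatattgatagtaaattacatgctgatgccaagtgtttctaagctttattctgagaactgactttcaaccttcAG
Clk1-204: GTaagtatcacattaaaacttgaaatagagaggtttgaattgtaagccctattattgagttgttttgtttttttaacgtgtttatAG
Xrn2-204: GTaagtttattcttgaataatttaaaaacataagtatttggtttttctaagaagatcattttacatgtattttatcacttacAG
Rpl6-206: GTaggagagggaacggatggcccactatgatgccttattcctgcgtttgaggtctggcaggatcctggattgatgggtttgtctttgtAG
Brd2-205: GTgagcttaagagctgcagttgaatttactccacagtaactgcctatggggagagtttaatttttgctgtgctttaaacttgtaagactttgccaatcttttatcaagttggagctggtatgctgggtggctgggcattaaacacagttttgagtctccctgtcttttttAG
Zfp687-207: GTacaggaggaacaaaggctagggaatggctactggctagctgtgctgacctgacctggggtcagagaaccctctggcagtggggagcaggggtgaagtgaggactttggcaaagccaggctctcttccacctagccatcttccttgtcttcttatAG
Chd8-203: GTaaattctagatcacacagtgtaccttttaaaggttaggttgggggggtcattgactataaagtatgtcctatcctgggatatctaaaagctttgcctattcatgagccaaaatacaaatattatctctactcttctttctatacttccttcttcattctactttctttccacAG
Tsc2-212: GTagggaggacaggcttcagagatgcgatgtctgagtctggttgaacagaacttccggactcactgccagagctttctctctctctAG

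All 8 introns hold a stop codon in each of the 3 frames. Their GC content ranged from 21.4% in Xrn2 to 55.1% in Zfp687.

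The share of a transcript is its estimated count divided by the summed counts of all transcripts of its gene. For 7644 members, the gene had 100 or more counts in every library. Their mean share over the 9 libraries had a median of 2.90%, with 20.7% of them under 1%, 47.03% from 1% to under 5%, 27.3% from 5% to under 20%, and 4.42% from 20% to under 50%. The remaining 41 held 50% or more. In 75 of 3700 such genes, the members together held over 50% of the counts. The most members in a gene was 12, reached by Phip.

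**Figure D1:**
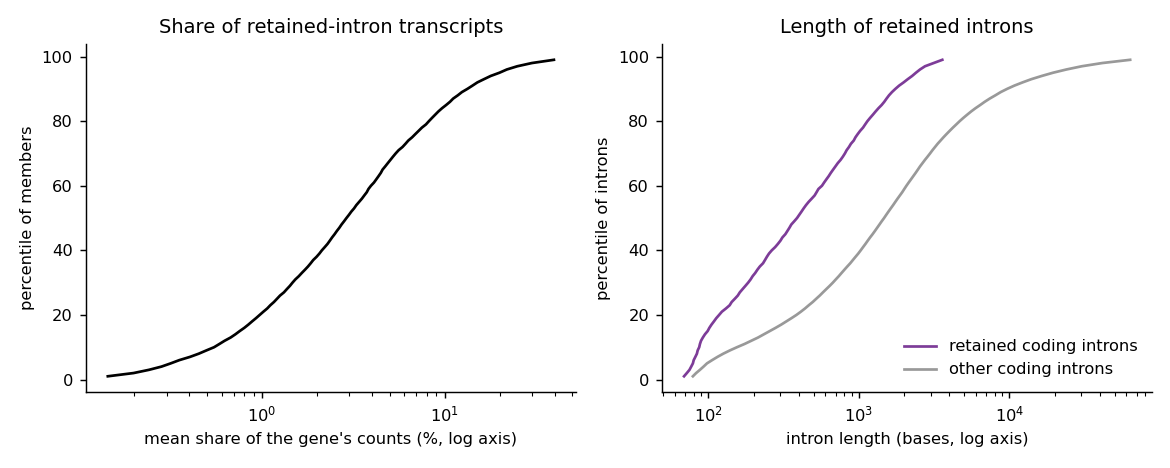
Left, percentiles of the mean share of its gene (%, log axis) over the members of genes with 100 or more counts in every library; right, percentiles of intron length (bases, log axis) for coding introns that lie whole inside a member and for the other coding introns of the member genes. The median share is 2.90%, and the retained introns are shorter, with medians of 388.5 and 1471 bases.

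How firmly a share can be read depends on how much sequence is the transcript's own. As a measure, the 31-base words (31-mers) of each transcript were counted that occur in no other annotated transcript. A median of 42.1% of a member's 31-mers were its own, against 5.97% for protein-coding, 3.67% for nonsense-mediated decay and 21.3% for processed transcripts passing the same minimum. There were 611 members with no own 31-mer, and for 288 under 50% of the 31-mers were specific to the gene.

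The 10 members with the highest mean CPM included genes of interferon and immune receptor biology. Ifi205-202, of an interferon-induced DNA-binding protein, had 403 CPM, and its share was 22.05%, 21.7% and 21.4% with control siRNA, 21.3%, 21.99% and 21.7% with Chd8 siRNA, and 22.2%, 20.7% and 22.4% with Tsc2 siRNA. These values overlapped between all groups. Parp14-203, of an interferon-induced ADP-ribosyltransferase, had 218 CPM, Samhd1-210, of a dNTP hydrolase that limits viruses, 190 CPM, and Ctsb-202, of the lysosomal protease cathepsin B, 244 CPM. The immune receptors Lilr4b (Lilr4b-206, 333 CPM) and Lilrb4a (Lilrb4a-206, 277 CPM) are close paralogs, and 66.1% and 22.5% of their members' 31-mers were specific to the gene, so that their values are uncertain. Gm43305-201 (280 CPM) was the sole transcript of its gene past the minimum.

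Lars2-205, of the mitochondrial leucyl-tRNA synthetase (chr9:123454790-123461899, plus strand), was the most abundant member at 664 CPM. Its share was 64.0%, 31.2% and 39.6% with control siRNA, 43.7%, 32.7% and 41.8% with Chd8 siRNA, and 46.5%, 33.7% and 45.6% with Tsc2 siRNA. Control siRNA library 1 stood above all others, and within each group library 1 was the highest and library 2 the lowest.

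Ncl-202, of nucleolin, a nucleolar protein whose gene hosts small nucleolar RNAs, held most of its gene's counts. It spans chr1:86350495-86359364 on the minus strand, keeps 2 complete introns, and had shares of 79.6%, 80.3% and 80.2% with control siRNA, 79.5%, 83.3% and 80.0% with Chd8 siRNA, and 78.0%, 80.9% and 78.7% with Tsc2 siRNA. The groups overlapped. Among the other members with the highest mean shares of their genes were H2-Q5-203 (94.0%), of an MHC class I gene with 45.6% gene-specific 31-mers, Gm14391-205 (89.3%), Smo-202 (83.4%), of the Hedgehog signal transducer Smoothened, and Amn1-210 (80.0%), a single exon of 15841 bases that spans 5 annotated introns.

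The question that the design asks is whether the retained-intron share of these genes differed between control, Chd8 and Tsc2 siRNA. Pooled over all members, retained-intron transcripts held 8.70%, 7.58% and 8.27% of the counts of their genes in the control siRNA libraries 1 to 3. They held 8.04%, 7.14% and 7.73% with Chd8 siRNA and 8.19%, 7.42% and 8.12% with Tsc2 siRNA. At each replicate number the control siRNA library was the highest, the Tsc2 siRNA library was in the middle and the Chd8 siRNA library was the lowest. This order was not kept by other ways of summing. With each gene counted once, Tsc2 siRNA library 3 (18.6%) lay above control siRNA library 3 (18.2%) and Chd8 siRNA library 1 (18.95%) above Tsc2 siRNA library 1 (18.89%), and as a share of all counts Tsc2 siRNA library 3 (3.857%) lay above control siRNA library 3 (3.811%). Chd8 siRNA was below control siRNA at all 3 numbers in both. Within every group, number 1 was the highest and number 2 the lowest, so the 3 groups overlapped.

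The group means were 8.18% ± 0.564 with control siRNA, 7.64% ± 0.456 with Chd8 siRNA and 7.91% ± 0.425 with Tsc2 siRNA (SD, n = 3 each). The two-sided exact permutation test over libraries gave p = 0.3 for Chd8 siRNA against control siRNA, p = 0.5 for Tsc2 siRNA against control siRNA and p = 0.5 for Tsc2 siRNA against Chd8 siRNA. No test over libraries passed 0.05, although the difference for Chd8 siRNA was about the size of the SD of its groups. Between replicate numbers the mean share ranged from 7.38% (number 2) to 8.31% (number 1), a wider range than that between siRNAs.

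Within replicate number, the Chd8 siRNA library lay below the control siRNA library by 0.661, 0.441 and 0.535 percentage points at numbers 1 to 3. The mean difference was −0.546 ± 0.110 points (SD, n = 3), or −6.63% of the control share. The Tsc2 siRNA library lay below control by 0.516, 0.166 and 0.149 points, with a mean of −0.277 ± 0.207. Tsc2 siRNA lay above Chd8 siRNA by 0.145, 0.275 and 0.386 points. The exact sign-flip test within numbers gave p = 0.25 in all 3 comparisons, the smallest value that 3 pairs allow.

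**Figure D2:**
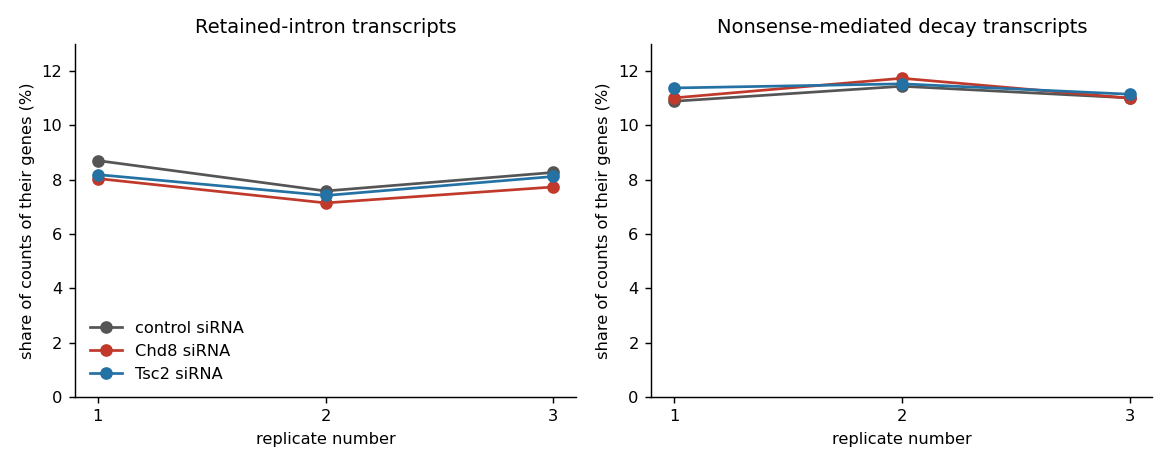
Share of the counts of their genes (%) held by retained-intron transcripts (left) and by nonsense-mediated decay transcripts (right) at each replicate number, with 1 point per library and lines joining libraries of a group. For retained introns the control siRNA library is the highest and the Chd8 siRNA library the lowest at each number, from 8.70% against 8.04% at number 1 to 7.58% against 7.14% at number 2.

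Some other values moved with the pooled share. Summed endothelial and mural markers were at 192, 203 and 340 CPM with control siRNA, 173, 160 and 272 CPM with Chd8 siRNA, and 179.7, 185 and 288 CPM with Tsc2 siRNA, below control at all 3 numbers with either knockdown. Summed microglial markers were at 3591, 3354 and 2904 CPM with control siRNA, 4050, 3465 and 3100 CPM with Chd8 siRNA, and 3985, 3377 and 3559 CPM with Tsc2 siRNA, above control at all 3 numbers. Not every marker followed the sum, and Csf1r, the receptor that microglia need to survive, was below control at all 3 numbers with either knockdown. It was at 581, 460.2 and 468 CPM with control siRNA, 489.8, 419.7 and 409.6 CPM with Chd8 siRNA, and 493, 406 and 441 CPM with Tsc2 siRNA. Astrocyte markers in control siRNA library 3 were at 119.7 CPM, against 58.9 and 60.2 CPM in the knockdown libraries of that number, and the part of any of these cell types in the retained-intron shares was not tested. In each group, library 2 had the lowest total count and the lowest pooled share. Long intergenic RNA held 4.60%, 3.66% and 3.33% of all counts with control siRNA, 4.03%, 3.55% and 3.21% with Chd8 siRNA, and 4.15%, 3.49% and 3.26% with Tsc2 siRNA, and was highest at number 1 in each group. Transcripts of the TEC class, a GENCODE type for models that still await experimental support, held 0.521%, 0.464% and 0.481% with control siRNA, 0.485%, 0.389% and 0.416% with Chd8 siRNA, and 0.498%, 0.412% and 0.431% with Tsc2 siRNA. Transcripts of the sense-intronic class, which lie within introns of other genes, held 0.0469%, 0.0345% and 0.0419% with control siRNA, 0.0421%, 0.0267% and 0.0383% with Chd8 siRNA, and 0.0407%, 0.0275% and 0.0397% with Tsc2 siRNA. All of these classes, and the antisense class at 0.0926% to 0.106% with control siRNA, 0.0832% to 0.0972% with Chd8 siRNA and 0.0868% to 0.0970% with Tsc2 siRNA, were below control at every number with either knockdown, and the part of unspliced or nuclear RNA in the retained-intron shares was not tested. So was mitochondrial rRNA, at 5.04%, 5.98% and 6.15% with control siRNA, 4.97%, 5.35% and 5.98% with Chd8 siRNA, and 5.02%, 5.63% and 5.41% with Tsc2 siRNA. The miRNA class was below control except at number 2 with Chd8 siRNA (10.3% against 9.45%). The summed nuclear RNA list (Malat1, Neat1 and others) was at 28382 to 37709 CPM with control siRNA, 28157 to 34389 CPM with Chd8 siRNA and 28845 to 34211 CPM with Tsc2 siRNA. This sum was not below control at every number. It was above control at number 2 with Chd8 siRNA (29663 against 29526 CPM) and at number 3 with Tsc2 siRNA (28926 against 28382 CPM). Unlike the sum, some nuclear RNAs in this list were below control at every number with either knockdown, among them Malat1, Neat1 and Kcnq1ot1. Malat1, a nuclear speckle RNA, was at 8578, 4962 and 5241 CPM with control siRNA, 7396, 4783 and 4717 CPM with Chd8 siRNA, and 7315, 4876 and 4583 CPM with Tsc2 siRNA. Neat1, the scaffold of paraspeckles, was at 426, 316 and 238 CPM with control siRNA, 270, 157 and 143 CPM with Chd8 siRNA, and 275, 200.3 and 141 CPM with Tsc2 siRNA. Kcnq1ot1, an imprinted antisense RNA, was at 24.1, 23.2 and 37.9 CPM with control siRNA, 13.2, 12.3 and 19.6 CPM with Chd8 siRNA, all below the control libraries (two-sided exact test over libraries, p = 0.1), and 19.1, 17.8 and 26.4 CPM with Tsc2 siRNA. Their part in the retained-intron shares was not tested.

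Transcripts annotated as targets of nonsense-mediated decay, another class of unproductive RNA, held 10.9%, 11.4% and 11.01% of their genes' counts with control siRNA. They held 11.01%, 11.7% and 11.004% with Chd8 siRNA and 11.4%, 11.5% and 11.1% with Tsc2 siRNA. Unlike the retained-intron share, this share was highest at number 2. The log2 ratio of the retained-intron to the nonsense-mediated decay share overlapped between the groups (two-sided exact permutation test over libraries, p = 0.4 for either knockdown against control siRNA). Within number it was below control at all 3 numbers, by −0.13, −0.12 and −0.10 with Chd8 siRNA and by −0.15, −0.04 and −0.04 with Tsc2 siRNA (exact sign-flip p = 0.25 for both, the smallest possible). The ratio to the processed transcript share was below control at 2 of 3 numbers with either knockdown (p = 0.6 for Chd8 siRNA and p = 0.7 for Tsc2 siRNA, by the same exact test).

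The lower pooled share with Chd8 siRNA was seen over members of unlike sequence and structure. Members with 60% or more own 31-mers held 4.94% of their genes' counts with control siRNA, 4.48% with Chd8 siRNA and 4.70% with Tsc2 siRNA, and the Chd8 siRNA value was lower at all 3 numbers. Members with under 10% own 31-mers held 7.04%, 6.86% and 6.99%. Members with 2 or more complete introns held 6.69% with control siRNA, 6.18% with Chd8 siRNA and 6.55% with Tsc2 siRNA. Of the 19 classes of own 31-mers, complete introns, GC content, length and abundance, 18 were lower at all 3 numbers with Chd8 siRNA and 15 with Tsc2 siRNA. These classes share the same libraries and are not independent.

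To compare single transcripts, relative usage was fitted with edgeR's diffSpliceDGE over all 34353 transcripts of genes with at least 2 transcripts past the minimum, 9011 members among them. The log2 change in relative usage is the change of a transcript minus that of its whole gene, the transcript itself included. A transcript that holds most of its gene's counts therefore stays near 0 by construction. For this reason the other transcripts are not a neutral reference for members with small shares. With Chd8 siRNA against control siRNA the members' median change was −0.13 on the log2 scale (quartiles −0.54 and 0.25), against −0.01 over all transcripts tested, and 5391 members (59.8%) were below 0. With Tsc2 siRNA against control siRNA the median was −0.07 (quartiles −0.43 and 0.30), against −0.01 over all, and 5005 members (55.5%) were below 0. For Tsc2 siRNA against Chd8 siRNA the median was 0.05, against 0.00 over all.

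The 2 comparisons with control siRNA share the same control libraries, which ties their directions. Without control siRNA library 1, the median for Tsc2 siRNA was 0.01, and over all single libraries left out and the replicate block it ranged from −0.11 to 0.01. For Chd8 siRNA it ranged from −0.20 to −0.06 over the same fits. With transcripts at 0 throughout a group set at the 3-count floor over that group, the medians were −0.13 and −0.07.

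**Figure D3:**
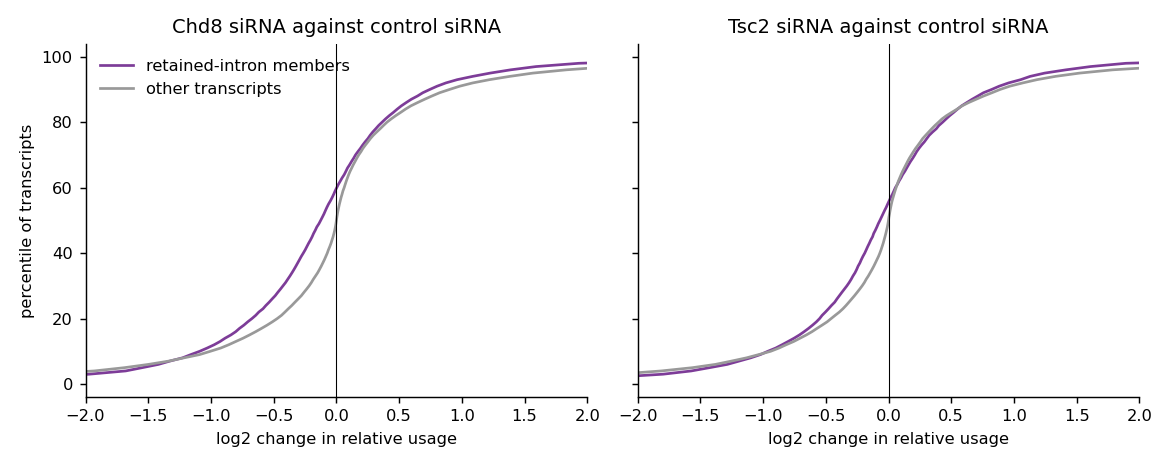
Percentiles of the log2 change in relative usage for the 9011 retained-intron members and for the other transcripts tested, for each knockdown against control siRNA. The members' curve lies to the left of 0 at its middle, with a median of −0.13 for Chd8 siRNA and −0.07 for Tsc2 siRNA, while the other transcripts are centred on 0.00. Transcripts that hold most of their gene's counts lie near 0 by construction.

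Transcripts whose share was lower in the knockdown library at each of the 3 replicate numbers were also counted. The members share the libraries of the pooled share, so these counts describe the same shift and are not independent of it. All transcripts tested include the members and the transcripts whose shares rise as theirs fall. With Chd8 siRNA, 1534 of 9011 members (17.0%) were lower at all 3 numbers, where 12.9% of all transcripts tested were, and 744 (8.26%) were higher at all 3, where 10.6% of all were. With Tsc2 siRNA, 1328 members (14.7%) were lower at all 3 numbers (12.3% of all transcripts) and 956 (10.6%) were higher (11.2% of all). For Tsc2 siRNA against Chd8 siRNA, 905 members (10.04%) were lower (10.9% of all) and 1327 (14.7%) higher (12.3% of all).

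Members that passed 10 counts in all 9 libraries, where no zero can enter, were counted in the same way over the same libraries. Of 3624 such members tested, 742 (20.5%) were lower with Chd8 siRNA at all 3 numbers, against 13.9% of the 16464 transcripts with as many counts, and 287 (7.92%) were higher, against 12.9%. With Tsc2 siRNA, 651 (18.0%) were lower, against 13.9%, and 383 (10.6%) were higher, against 12.6%.

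Members whose groups did not overlap were counted as well. With Chd8 siRNA, all 3 shares lay below all 3 control shares in 575 members (6.38%), against 5.01% of all transcripts tested, and above them in 269 (2.99%), against 4.17%. With Tsc2 siRNA they lay below in 503 (5.58%), against 4.85%, and above in 327 (3.63%), against 4.45%. For Tsc2 siRNA against Chd8 siRNA they lay below in 327 (3.63%), against 4.25%, and above in 487 (5.405%), against 4.81%.

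Few single members were called, that is, had an adjusted p under 0.05 and relative usage changed at least 1.5-fold. In edgeR's diffSpliceDGE, 1 member was called for Chd8 siRNA against control siRNA, lower, where 0.154% of all transcripts were called. For Tsc2 siRNA against control siRNA, 2 were called, both lower (0.108% of all), and for Tsc2 siRNA against Chd8 siRNA 5 were called, 3 higher and 2 lower (0.192% of all). At an unadjusted p under 0.05, there were 148 members (1.64%) for Chd8 siRNA, where 2.94% of all transcripts passed, 132 (1.46%) for Tsc2 siRNA (2.8% of all), and 151 (1.68%) for Tsc2 siRNA against Chd8 siRNA (3.02% of all). Members were thus not called more often than other transcripts.

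These calls were not stable. With the replicate number as a block, the edgeR fit called 0, 0 and 1 members in the 3 comparisons. An edgeR quasi-likelihood test with the gene total as an offset, which estimates the spread of each transcript by itself, called 0 in each, with 257 (2.85%), 203 (2.25%) and 200 (2.22%) members at an unadjusted p under 0.05, where 3.57%, 3.15% and 3.42% of all transcripts passed. On simulated data, diffSpliceDGE made 52 calls in a comparison where nothing had been changed. In the real data it called 53, 37 and 66 of all transcripts. Of 200 differences put in, diffSpliceDGE recovered 3 and the offset test 1. limma's diffSplice, which called 0 members in each comparison, recovered 19 and made 5 calls where nothing had been changed. Few or no calls therefore say little. The calls are therefore named below with their values and with no weight on the call.

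The called members were mostly transcripts with no estimated count in a whole group. Zfp687-207, of a zinc finger protein (chr3:95006832-95015404, minus strand), had 11.6%, 40.4% and 6.32% of its gene's counts with control siRNA and 25.6%, 18.1% and 31.6% with Chd8 siRNA, and was at 0 in the 3 Tsc2 siRNA libraries. Against the floor of 3 counts over the group, its share was at least 64.7-fold lower with Tsc2 siRNA than with control siRNA. It was called in both comparisons of Tsc2 siRNA (edgeR diffSpliceDGE, adjusted p = 0.029 and 0.011). With the replicate block the adjusted p values were 0.15 and 0.075, and the transcript has no 31-mer of its own.

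Lrpap1-203, of a chaperone of LDL receptor family proteins, had 3.20%, 4.47% and 3.47% with control siRNA and 4.37%, 7.55% and 2.96% with Tsc2 siRNA. It was at 0 in all Chd8 siRNA libraries, at least 37.4-fold below Tsc2 siRNA, and was called in that comparison (edgeR diffSpliceDGE, adjusted p = 0.036), while against control siRNA it was not (adjusted p = 0.059). Psmb4-202, of a proteasome subunit, was at 0 in the Chd8 siRNA libraries and in control siRNA library 1, and had 6.67% and 2.42% in the other control libraries and 6.65%, 2.90% and 3.31% with Tsc2 siRNA. It was the member called for Chd8 siRNA against control siRNA (adjusted p = 0.034), although the groups overlapped at 0.

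Ppp4c-204, of a protein phosphatase catalytic subunit, was at 0 in the 3 Tsc2 siRNA libraries, in control siRNA library 2 and in Chd8 siRNA library 1. In the other libraries it held 2.88% and 3.15% with control siRNA and 2.59% and 4.97% with Chd8 siRNA, and it was called in both comparisons of Tsc2 siRNA (edgeR diffSpliceDGE, adjusted p = 0.049 and 0.029). Brd2-217, of a bromodomain protein that binds acetylated histones, had 0.357% in Chd8 siRNA library 1 and 0 in libraries 2 and 3, against 0.507%, 0.948% and 2.43% with Tsc2 siRNA. It was the member that the block kept in that comparison (adjusted p = 0.018). Its level with control siRNA, 1.52%, 0.234% and 1.31%, overlapped both.

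The members with the lowest p values among those without overlap were of the same kind. Of the 5 higher and 5 lower members chosen so for Chd8 siRNA, 4 and 5 were at 0 in all 3 libraries of the lower group, and for Tsc2 siRNA 5 and 4 were. All 5 that were higher with Chd8 siRNA (Dock2-206, Spaca6-214, N4bp2l2-204, Top3b-202 and Lrig2-209) had under 10% own 31-mers. Their mean levels lay between 0.390 and 2.21 CPM. Dock2-206, of a guanine nucleotide exchange factor of immune cell migration, was at 0 with control siRNA and at 2.23%, 1.40% and 2.43% with Chd8 siRNA, at least 91.5-fold higher against the floor, but holds no base that is intronic in the gene's other transcripts. Top3b-202, of a topoisomerase, was at 0 with control siRNA and at 22.97%, 7.33% and 15.3% with Chd8 siRNA.

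The lower members for Chd8 siRNA were Lrpap1-203, Tstd2-208, Rnf44-213, Dap3-208 and Etfdh-204, at 0.192 to 1.16 CPM. Etfdh-204, of an electron transfer flavoprotein dehydrogenase, had 10.001%, 9.17% and 5.58% with control siRNA and was at 0 in all 6 knockdown libraries. It is one of the members that passed the minimum through the control siRNA libraries alone (14.5, 11.9 and 10.4 counts), so its difference is in part fixed by the selection. For Tsc2 siRNA the higher were Apbb2-208, Polr3a-205, Igf1r-203, Taf1d-205 and N4bp2l2-204, and the lower were Zfp687-207, Ric8a-205, Tmem43-202, Sf3b2-205 and Pibf1-202. Across all comparisons, between 1.13% and 1.45% of the tested members were at 0 throughout 1 of the 2 groups, against 2.36% to 2.59% of all transcripts tested.

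The named members numbered 91 in all. Among those chosen by their counts or those of their gene, 3 overlapped control siRNA with neither knockdown. Others, given with their lists below, were without overlap for a single knockdown. Over all transcripts tested, 5.01% lay below and 4.17% above control without overlap with Chd8 siRNA, and 4.85% and 4.45% with Tsc2 siRNA. Fth1-208, of the ferritin heavy chain that stores iron, spans chr19:9982704-9985092 on the plus strand and had 57.2% own 31-mers. Its share was 1.44%, 1.45% and 1.56% with control siRNA, 1.19%, 1.18% and 1.19% with Chd8 siRNA, and 1.146%, 1.25% and 1.39% with Tsc2 siRNA. Both knockdowns lay below control without overlap, by −0.32 ± 0.19 and −0.23 ± 0.19 on the log2 scale (SE), with an adjusted p of 1 in edgeR's diffSpliceDGE.

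Gramd1a-205, of a protein that carries cholesterol between membranes, went the other way. It held 44.3%, 45.0% and 44.6% of its gene's counts with control siRNA, 46.2%, 48.8% and 51.0% with Chd8 siRNA, and 48.3%, 48.1% and 47.5% with Tsc2 siRNA. Both knockdowns lay above control without overlap, by 0.12 ± 0.32 and 0.10 ± 0.32 on the log2 scale (SE, adjusted p of 1 in the same edgeR fit). This transcript keeps 4 annotated introns of its gene and has no 31-mer of its own.

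Rpl6-206, of a ribosomal protein of the large subunit and the source of the Rpl6 intron above, had shares of 3.26%, 1.39% and 2.58% with control siRNA. They were 1.1455%, 1.36% and 0.781% with Chd8 siRNA and 0.875%, 1.20% and 1.28% with Tsc2 siRNA. Both knockdowns were lower without overlap, by −1.09 ± 0.53 and −1.07 ± 0.53 on the log2 scale (SE, adjusted p of 1 in edgeR's diffSpliceDGE), although control library 2 was close to the knockdown libraries.

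**Figure D4:**
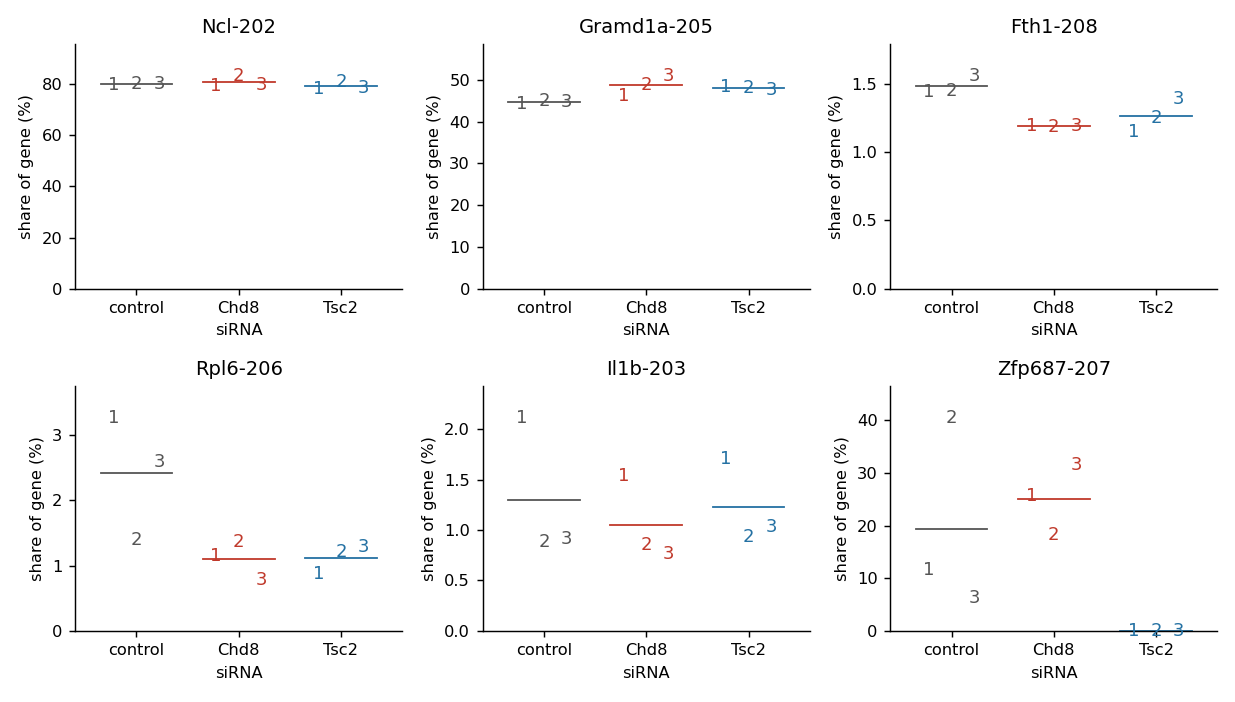
Share of its gene's counts (%) for 6 members in each library, drawn as the replicate number, with a line at the mean of each group. Ncl-202 stays near 80%, Gramd1a-205 lies higher and Fth1-208 and Rpl6-206 lie lower with both knockdowns, Il1b-203 is highest at number 1 in each group, and Zfp687-207 is at 0 in the 3 Tsc2 siRNA libraries.

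Grouped by gene function, the retained-intron share ranged from 2.37% ± 0.296 in ribosomal protein genes to 67.8% ± 0.954 in snoRNA host genes with control siRNA (SD, n = 3). Of 16 lists, 11 were below control at all 3 replicate numbers with Chd8 siRNA and 2 were above at all 3, of which the snoRNA host genes were below without Ncl. With Tsc2 siRNA 5 were below and 1 was above at all 3 numbers. Of the 16 lists, 2 had no overlap between Chd8 siRNA and control siRNA, and 0 had none between Tsc2 siRNA and control siRNA. With a smallest possible p of 0.1 in each of 16 lists, separations in that number can arise by chance. The 2 lists are given first and are not singled out by these values. Since the lists share libraries and the pooled share itself was lower at each number, these counts describe the same shift.

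Genes of RNA export and decay, whose products carry RNA out of the nucleus or degrade it, had a lower share with Chd8 siRNA at all 3 numbers. Their 54 members held 8.89%, 7.76% and 7.85% with control siRNA, 7.62%, 5.69% and 5.71% with Chd8 siRNA, and 7.41%, 7.09% and 7.96% with Tsc2 siRNA. The Chd8 siRNA libraries all lay below control (−1.83 ± 0.481 points within number, SD, n = 3; two-sided exact permutation p = 0.1, the smallest possible), and the Tsc2 siRNA libraries overlapped it. The members' median change in usage was −0.22 on the log2 scale, and none was called, with 0 at an unadjusted p under 0.05 in edgeR's diffSpliceDGE. Smg1-209, of the kinase that starts nonsense-mediated decay, had 3.85%, 3.22% and 1.75% with control siRNA and 2.28%, 1.62% and 0% with Chd8 siRNA. Xrn2-204, of a nuclear exonuclease, had 2.84%, 1.65% and 2.19% with control siRNA and 1.69%, 1.75% and 1.30% with Chd8 siRNA, so both members overlapped between groups.

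SR protein kinases, which phosphorylate SR proteins and include the Clk family, had a high retained-intron share. Their 25 members held 30.8%, 32.8% and 36.3% with control siRNA, 29.8%, 30.3% and 29.4% with Chd8 siRNA, and 31.3%, 28.0% and 32.7% with Tsc2 siRNA. Chd8 siRNA lay below control without overlap (exact permutation p = 0.1), with a mean difference within number of −3.45 ± 3.07 points that was widest at number 3. Clk1-204, which keeps the intron printed above, held 36.2%, 32.4% and 39.9% with control siRNA, 36.0%, 35.1% and 38.6% with Chd8 siRNA, and 29.2%, 30.2% and 40.3% with Tsc2 siRNA. Prpf4b-206, of a kinase of the spliceosome, averaged 36.0% over the libraries, and both members overlapped between the groups.

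SR proteins activate splicing. Their 34 members held 14.9%, 13.01% and 14.5% with control siRNA, 13.8%, 12.3% and 12.04% with Chd8 siRNA, and 15.2%, 13.01% and 14.01% with Tsc2 siRNA. Chd8 siRNA was lower at all 3 numbers (−1.41 ± 0.885 points, exact permutation p = 0.2), while Tsc2 siRNA differed by −0.0652 ± 0.351 points (p = 1 by the same exact test). Tra2a-203, of a splicing activator, is a single exon with 95.4% own 31-mers, and it held 20.6%, 17.4% and 15.6% with control siRNA, 16.1%, 15.0% and 15.4% with Chd8 siRNA, and 21.95%, 12.955% and 14.5% with Tsc2 siRNA.

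The pooled share of hnRNP genes, whose proteins often oppose SR proteins, was lower than control with Chd8 siRNA at all 3 numbers (−0.656 ± 0.289 points) and higher with Tsc2 siRNA at all 3 (0.392 ± 0.506 points). Counted by member, Tsc2 siRNA did not lean upward, with a median change in usage of −0.04 on the log2 scale, 11 members lower at all 3 numbers and 9 higher. Their 58 members held 7.56% ± 0.586 with control siRNA, 6.91% ± 0.607 with Chd8 siRNA and 7.95% ± 0.800 with Tsc2 siRNA (SD, n = 3). The groups overlapped in both comparisons (exact permutation p = 0.3 and 0.4). Hnrnpk-204, of an RNA- and DNA-binding protein, had 2.88%, 4.49% and 5.26% with control siRNA and 6.89%, 6.38% and 6.57% with Tsc2 siRNA, where the groups did not overlap (0.65 ± 0.41 on the log2 scale, SE, adjusted p of 1 in edgeR's diffSpliceDGE). Hnrnpu-202, of a nuclear matrix RNA-binding protein, had 1.40%, 1.495% and 2.06% with control siRNA and 1.20%, 1.11% and 1.40% with Chd8 siRNA, lower without overlap although the nearest libraries of the groups both stood at 1.40%.

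Genes of the core spliceosome, with 120 members, had lower shares at all 3 numbers with both knockdowns. They held 11.3% ± 0.803 with control siRNA, 10.2% ± 0.480 with Chd8 siRNA and 10.4% ± 0.441 with Tsc2 siRNA (SD, n = 3), and the exact permutation p was 0.3 for both. Sf3b1-203, of the branch point-binding subunit, held 7.40%, 8.52% and 9.27% with control siRNA, 8.72%, 8.26% and 7.98% with Chd8 siRNA, and 7.13%, 8.02% and 7.97% with Tsc2 siRNA, and did not separate the groups.

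snoRNA host genes stood apart in level. Their 18 members held 67.5%, 68.9% and 67.1% with control siRNA, 67.5%, 72.2% and 69.2% with Chd8 siRNA, and 65.5%, 70.0% and 67.8% with Tsc2 siRNA. Chd8 siRNA was above control at all 3 numbers, by 1.79 ± 1.61 points (exact permutation p = 0.2). The list value rested on Ncl, which has far more counts than the other listed genes named here. Without Ncl, an alternative chosen after seeing the data, the other 16 members held 35.4%, 32.7% and 33.2% with control siRNA, 33.9%, 24.8% and 28.5% with Chd8 siRNA, and 30.3%, 31.4% and 33.4% with Tsc2 siRNA, and Chd8 siRNA was below control at all 3 numbers (−4.74 ± 3.20 points, exact permutation p = 0.3). Of the smaller hosts, Nop56-213 held a mean of 4.23% and Zfas1-202 18.4% of their genes. In all, 9 of the 22 listed host genes found in the table had a member.

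Ribosomal protein genes, with 107 members, held 2.37% ± 0.296 with control siRNA and 2.04% ± 0.257 with Chd8 siRNA, and the differences within number (−0.328 ± 0.0470 points, SD, n = 3) varied little. With Tsc2 siRNA they held 2.17% ± 0.116, with a higher share than control at number 2. Genes of oxidative phosphorylation held 4.44% ± 0.748, 3.91% ± 0.440 and 4.09% ± 0.313 with control, Chd8 and Tsc2 siRNA. In this list Atp5b-208, of the catalytic subunit of ATP synthase, had 0.501%, 0.581% and 0.909% with control siRNA and 0.434%, 0.377% and 0.290% with Chd8 siRNA, which did not overlap (edgeR's diffSpliceDGE, adjusted p of 1).

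Innate immune and cytokine genes, with 105 members, were below control at all 3 numbers with either knockdown. They held 6.59%, 5.98% and 6.66% with control siRNA, 5.94%, 5.70% and 6.09% with Chd8 siRNA, and 6.25%, 5.60% and 6.62% with Tsc2 siRNA. Il1b-203, of the cytokine interleukin-1 beta, had 2.11%, 0.878% and 0.913% with control siRNA, 1.54%, 0.849% and 0.766% with Chd8 siRNA, and 1.70%, 0.935% and 1.03% with Tsc2 siRNA, and library 1 was the highest in each group. Cxcl10-204, of an interferon-induced chemokine, is an unspliced model of 2230 bases that keeps 3 introns, and its share ranged from 2.61% to 4.34% with no separation of the groups.

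MHC and antigen presentation genes differed in direction from most lists in the pooled share with Chd8 siRNA, but not in the median change in usage of their members, which was −0.09 on the log2 scale, with 4 lower and 2 higher at all 3 numbers. Their 34 members held 6.63%, 6.16% and 6.67% with control siRNA and 6.69%, 6.17% and 6.92% with Chd8 siRNA, above control at all 3 numbers by 0.108 ± 0.125 points. With Tsc2 siRNA they held 6.40%, 6.35% and 6.99%. Several of these genes are near-identical copies, and 65.8% of the 31-mers of H2-K1-213 and 61.8% of those of H2-D1-204 were specific to the gene, so the split of reads between them is uncertain.

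TSC and mTOR genes, the pathway of the Tsc2 target, held 12.5%, 11.9% and 13.3% in their 38 members with control siRNA. They held 12.2%, 11.02% and 12.4% with Chd8 siRNA and 11.5%, 13.1% and 11.6% with Tsc2 siRNA, the latter higher than control at number 2 and lower at numbers 1 and 3. Rragc-202, of a Rag GTPase that recruits mTORC1 to lysosomes, ranged from 8.79% to 16.3% and Rictor-205, of an mTORC2 subunit, from 5.42% to 10.1%, both overlapping between groups.

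Chromatin remodelers and modifiers, the class of Chd8, held 6.22% ± 0.512 with control siRNA, 5.89% ± 0.828 with Chd8 siRNA and 6.22% ± 0.723 with Tsc2 siRNA in 153 members. Brd2-205, the source of the Brd2 intron above, had 3.25%, 3.36% and 3.12% with control siRNA, 3.29%, 2.84% and 1.67% with Chd8 siRNA, and 3.85%, 3.84% and 4.81% with Tsc2 siRNA. The Tsc2 siRNA libraries lay above all others, by 0.35 ± 0.42 against control siRNA and 0.68 ± 0.42 against Chd8 siRNA on the log2 scale (SE, adjusted p of 1 in edgeR's diffSpliceDGE). Tet2-208, of an enzyme that oxidizes 5-methylcytosine, ranged from 3.09% to 5.68% and did not separate the groups.

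Of the remaining lists, translation factors differed least from control with Chd8 siRNA. Cell cycle genes held 14.3% ± 1.137, 12.9% ± 2.23 and 13.2% ± 0.985 with control, Chd8 and Tsc2 siRNA, NRF2 and redox genes 3.87% ± 0.265, 3.61% ± 0.284 and 3.71% ± 0.227, and lysosome and autophagy genes 4.02% ± 0.261, 3.85% ± 0.204 and 3.81% ± 0.146 (SD, n = 3). Translation factors held 4.91% ± 0.561, 4.93% ± 0.313 and 4.74% ± 0.397, with Chd8 siRNA lower than control at 1 number only. In the comparisons with control siRNA none of the members in the 16 lists was called in edgeR's diffSpliceDGE, and for Tsc2 siRNA against Chd8 siRNA 1 was, Brd2-217. At an unadjusted p under 0.05, 3 of 153 members of the chromatin list and no more than 1 of any other list were lower with Chd8 siRNA, against 92 of all 9011 members tested.

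**Figure D5:**
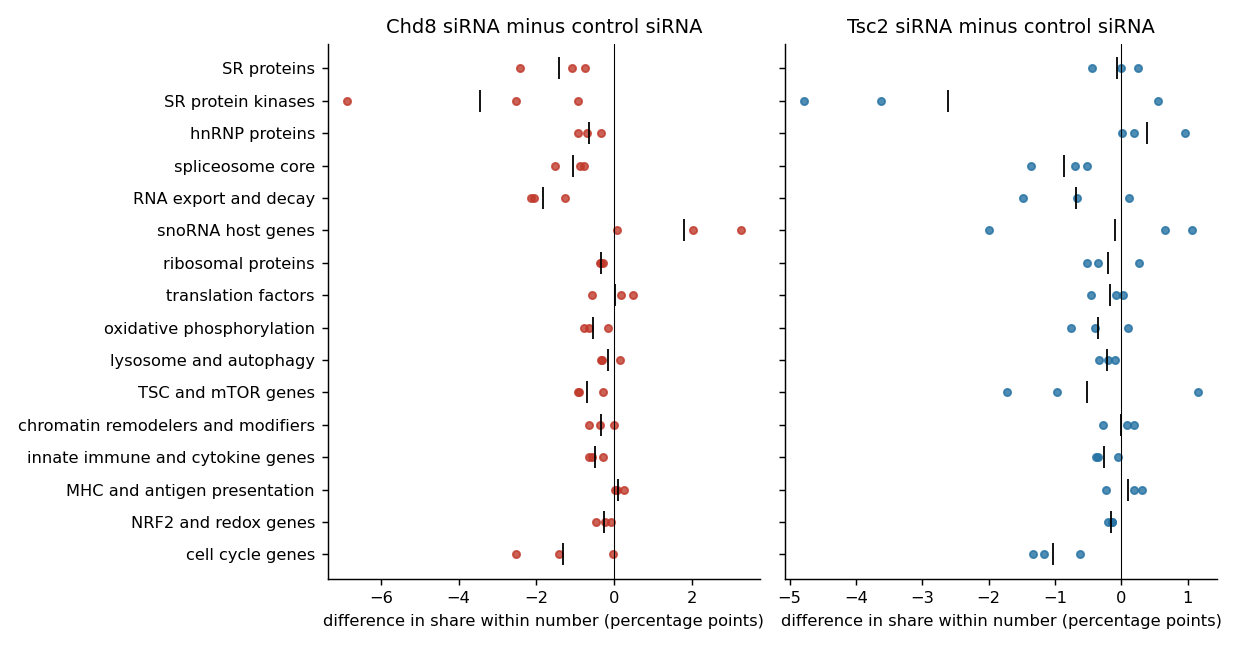
Difference in retained-intron share (percentage points) between the knockdown and the control siRNA library of the same replicate number for 16 gene lists, with 1 point per number and a black bar at the mean. With Chd8 siRNA 11 lists lie below 0 at all 3 numbers and 2 above it, the snoRNA host genes (below 0 at all 3 numbers when Ncl is left out) and the MHC and antigen presentation genes, and with Tsc2 siRNA 5 lie below at all 3 and 1 above, the hnRNP proteins.

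The targeted genes themselves had few retained-intron counts. Chd8 had 8 members, each with a mean share under 2% of the gene. Chd8-203 held 0.863%, 0.407% and 1.24% with control siRNA, 1.26%, 2.602% and 1.53% with Chd8 siRNA, and 0.853%, 0% and 1.75% with Tsc2 siRNA. It was the Chd8 member whose share in the Chd8 siRNA libraries lay above all control libraries (1.02 ± 1.38 on the log2 scale, SE, adjusted p of 1 in edgeR's diffSpliceDGE), at a mean of 0.917 CPM. The single member of Tsc2, Tsc2-212, averaged 0.248 CPM and was at 0 in 3 of the 9 libraries, and Igf1, a growth factor gene of microglia, had no member.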

How the data were processed

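RNA-seq libraries of total RNA from 9 microglial cultures were used. The authors estimated transcript abundance with Salmon 0.14.1 against mm10, per the labels, and the deposited values are estimated counts per transcript, which were rounded to whole numbers for the count tests. The annotation release is not given in the sources used here. The labels name a stranded kit and the methods another total RNA preparation.

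Transcript types and introns were taken from GENCODE mouse release 21, and the 1096 transcripts of the table without a match there, with 0.27% of all counts, stayed without a type. The members, the gene lists and the tests were chosen with earlier results of these data known. Shares are counts over the summed counts of the gene. Relative usage was tested over all transcripts with 10 or more counts in at least 3 libraries with diffSpliceDGE in edgeR 4.0.16 (R 4.3.3), at a false discovery rate of 0.05 and a 1.5-fold change. Alternatives used limma 3.58.1 and DESeq2 1.42.0. Values of a single measure were compared with two-sided exact permutation tests over libraries, and the scripts were tested on simulated data. Named members were the 10 with the highest mean CPM, for each knockdown against control siRNA the 5 higher and 5 lower with the lowest p among those without overlap in genes of at least 100 counts per library, the 3 in the genes with most counts of each list, all members of Chd8, Tsc2 and Igf1, and the 5 with the highest mean share in such genes with another transcript past the minimum. Psmb4-202, Ppp4c-204 and Brd2-217 fall outside this rule and were named after their values were seen, because they were called. Members at 0 in a whole group are given by a bound at 3 counts over the group.

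Library totals ranged from 16913448 to 33213801 counts. Floors cover counting error only. Values after ± are SDs over libraries or, where marked SE, come from the change and its F value in the diffSpliceDGE fit, and both include spread between libraries. As a check of pairing, deviations of gene totals from the group means correlated at 0.541 to 0.833 between libraries of the same number and at −0.680 to 0.254 between others, so the replicate number was also fitted as a block. For the members' shares the correlations of the same number were 0.00469 to 0.0843.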

Additional observations from a re-analysis of the deposited data

How the results depend on the processing

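The mean difference in pooled retained-intron share kept its direction in all 3 comparisons under every alternative run, but not its direction at every number. With each gene counted once, Tsc2 siRNA was below control siRNA at 2 numbers and below Chd8 siRNA at 1, and as a share of all counts it was below control siRNA at 2. The share of snoRNA host genes reversed for Chd8 siRNA against control siRNA without Ncl, from 1.79 to −4.74 points. The differences in percentage points ranged from −0.904 to −0.225 for Chd8 siRNA against control siRNA, from −0.466 to −0.0556 for Tsc2 siRNA against control siRNA and from 0.169 to 0.713 for Tsc2 siRNA against Chd8 siRNA. With 1 library left out they ranged from −0.846 to −0.287, from −0.577 to −0.0181 and from 0.0209 to 0.514, with the value nearest to 0 for Tsc2 siRNA reached without control siRNA replicate 1 and that for Tsc2 siRNA against Chd8 siRNA without Chd8 siRNA replicate 2.

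The counts of called members, 1, 2 and 5 in the order above, were not stable, and the cause was not tested. They were 0, 1 and 4 with a minimum of 5 counts, 2, 1 and 6 with no filter, 0, 0 and 0 with limma's diffSplice, 17, 12 and 17 with DESeq2 on transcript counts, 0, 0 and 0 with edgeR on transcript counts, and 1, 1 and 3 with the 6 libraries of a comparison. DESeq2 called 0.459%, 0.410% and 0.438% of all transcripts and 0.183%, 0.129% and 0.183% of members. At an unadjusted p under 0.05, limma gave 269, 326 and 275 members (2.99%, 3.62% and 3.05%, against 5.62%, 6.12% and 6.14% of all transcripts) and edgeR on transcript counts 209, 185 and 197 (2.25%, 2.00% and 2.12%, against 3.29%, 2.83% and 3.19%). With the replicate block the counts were 0, 0 and 1. Chosen after seeing the data, limma with the block gave 1, 0 and 1, and edgeR with the gene total as offset gave 0, 0 and 0 with and without the block. Leaving out 1 library gave 0 to 3, 1 to 3 and 1 to 5. At 16913448 to 33213801 counts per library, members near the minimum of 10 counts are estimated from few reads.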
